A study of Mus musculus with 5 samples.

Results

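Elane, Prtn3, Ctsg and Prss57 encode serine proteases of the azurophil granule, the granule that immature granulocytes build before the specific granules. The genes were taken by symbol and are 4 of the 55450 features of the count matrices. Elane encodes neutrophil elastase, Prtn3 proteinase 3 and Ctsg cathepsin G, and Prss57 encodes neutrophil serine protease 4. Their RNA was followed in single cells of 5 libraries (10x Genomics, 3′ v3 chemistry) from sorted mouse bone marrow progenitors. All animals were wild-type Balb/C mice, 8 to 12 weeks of age. Cells from crushed femur, tibia and fibula were enriched on beads for c-Kit and sorted as lineage-negative and c-Kit-positive, so every population shares those gates. GMP, the granulocyte-monocyte progenitor (Sca-1-negative, CD34-positive, CD16/32-high), has 3 libraries. CMP, the common myeloid progenitor (Sca-1-negative, CD34-positive, CD16/32-low), has 1 library. LMPP, the lymphoid-primed multipotent progenitor (Sca-1-positive, CD34-positive, Flt3-positive), has 1 library. The GMP libraries are called biological replicates by the submitters, who do not say whether each came from its own animals, so p-values measure only the spread between these samples.

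Azurophil proteases are made as inactive precursors, cut to the active form by cathepsin C (dipeptidyl peptidase 1), and packed with the proteoglycan serglycin and with myeloperoxidase. In myeloid differentiation their transcription is known to depend on C/EBP, PU.1, RUNX1 and MYB factors and is highest at the promyelocyte stage. It is shut down before neutrophils mature, while the stored proteins remain and act in microbial killing.

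On the mouse assembly GRCm38 with GENCODE M21, Elane (ENSMUSG00000020125) lies at chr10:79886247-79888215 on the plus strand, and Prtn3 (ENSMUSG00000057729) at chr10:79874476-79883174 on the same strand, 3072 bases before it. Prss57 (ENSMUSG00000020323) lies at chr10:79781474-79790961 on the minus strand, 83514 bases before Prtn3. Ctsg (ENSMUSG00000040314) is on another chromosome, at chr14:56099881-56102574 on the minus strand, beside granzyme and mast cell protease genes. All are protein-coding, with 5 exons in the transcript listed at the top of each. Prtn3 overlaps Plppr3, and Prss57 overlaps Fstl3, each on the opposite strand. The members' annotated transcripts share no run of 25 bases with one another.

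The members Elane, Prtn3 and Ctsg had an upstream sequence in the RefSeq table (GRCm38.p6). The 250 bases before each RefSeq start are shown 5′ to 3′ on the gene's strand, because these genes moved together and Elane and Prtn3 are neighbours. The Elane window is chr10:79886062-79886311, and GENCODE places the gene's start inside it. The Prtn3 window is chr10:79879417-79879666, which lies inside the longer GENCODE span of the gene. The Ctsg window is chr14:56102575-56102824. Of 5 motifs searched on both strands, capitals mark matches to the ETS, MYB, C/EBP and TATA-like strings. The RUNX match in Ctsg is left in lower case.
Elane: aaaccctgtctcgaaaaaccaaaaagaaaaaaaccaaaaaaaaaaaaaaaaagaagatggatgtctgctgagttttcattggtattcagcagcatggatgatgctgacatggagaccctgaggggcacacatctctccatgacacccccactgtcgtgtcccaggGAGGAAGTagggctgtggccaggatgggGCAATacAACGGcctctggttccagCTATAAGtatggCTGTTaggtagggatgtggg
Prtn3: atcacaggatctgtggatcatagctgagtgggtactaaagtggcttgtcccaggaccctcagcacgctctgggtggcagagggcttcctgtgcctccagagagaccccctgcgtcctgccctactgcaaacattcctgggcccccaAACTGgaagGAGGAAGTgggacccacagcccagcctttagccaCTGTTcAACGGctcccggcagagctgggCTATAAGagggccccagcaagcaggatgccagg
Ctsg: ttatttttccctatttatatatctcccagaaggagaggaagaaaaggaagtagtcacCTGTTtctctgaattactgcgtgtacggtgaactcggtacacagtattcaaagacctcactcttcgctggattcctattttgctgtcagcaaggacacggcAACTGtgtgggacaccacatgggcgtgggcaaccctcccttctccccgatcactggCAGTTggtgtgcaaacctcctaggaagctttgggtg

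Elane and Prtn3 shared a pair of landmarks at like distances from the start. The ETS (PU.1-type) string GAGGAAGT spans bases -85 to -78 in Elane and -95 to -88 in Prtn3, and 2.44% of 32851 RefSeq promoter windows hold it. The TATA-like string CTATAAG spans -32 to -26 in Elane and -33 to -27 in Prtn3, and 1.504% of windows hold it. The MYB string AACNG occurs in all 3 windows, with AACGG at -50 to -46 in Elane and at -55 to -51 in Prtn3, and 74.2% of windows hold such a string. The C/EBP core string GCAAT is in the Elane window, against 23.1% of windows, and the RUNX string TGTGGT is in the Ctsg window on the opposite strand (14.05% of windows). The capitals of overlapping or adjacent strings are not marked apart. The motifs were chosen after these sequences had been seen, and a match is a description of letters.

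The libraries resembled what their labels say. Fcgr3, which encodes a CD16/32 receptor chain, had 40.9, 35.9 and 45.9 CPM (UMIs, counts of unique molecules, scaled to a common library total) in GMP, 10.1 in CMP and 2.80 in LMPP. Flt3 had 4.76, 4.71 and 4.0 CPM in GMP, 47.5 in CMP and 128 in LMPP, and Ly6a, a gene of the Sca-1 antigen, had at most 1.06 CPM in GMP and in CMP and 17.3 CPM in LMPP. After filtering, the libraries held 7334 to 9016 GMP cells, 6880 CMP cells and 7511 LMPP cells, with median depths of 10699 to 15068.5, 10066 and 9249 UMIs per cell. The LMPP library stood apart in a respect that touches the proteases. The 7 early granulocyte markers summed to 700 to 813 CPM in GMP, 115 CPM in CMP and 1755 CPM in LMPP, with none at 0. The 7 maturing neutrophil markers summed to 12.1 to 14.7 CPM in GMP (1 at 0 in GMP library 2), 16.05 CPM in CMP (1 at 0) and 580 CPM in LMPP, with none at 0 there. Between any 2 libraries, 13 to 33 cell barcodes were shared.

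All 4 proteases were far higher in GMP than in either of the other populations. Elane had 12922, 10671 and 11539 CPM in the GMP libraries, 219 in CMP and 740 in LMPP. Prtn3 had 10663, 9481 and 9914 CPM in GMP, 1103 in CMP and 994 in LMPP. Ctsg had 3117, 3702 and 3837 CPM in GMP, 481 in CMP and 260 in LMPP. Prss57 had 273, 258 and 277 CPM in GMP, 23.5 in CMP and 37.9 in LMPP. For every member each GMP library lay above the CMP and LMPP libraries. A 3′ UMI count is not scaled by transcript length, so these levels count molecules and do not depend on gene length by design. In GMP, Elane at 11711 ± 1136 CPM (SD, n = 3) and Prtn3 at 10020 ± 598 lay near each other, with Elane above Prtn3 within each library. Both lay above Ctsg at 3552 ± 383 and Prss57 at 269 ± 10.0. In a sum over a library, fewer cells of a type and less RNA per cell cannot be told apart, and the cell-by-cell values further on bear on that.

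**Figure D1:**
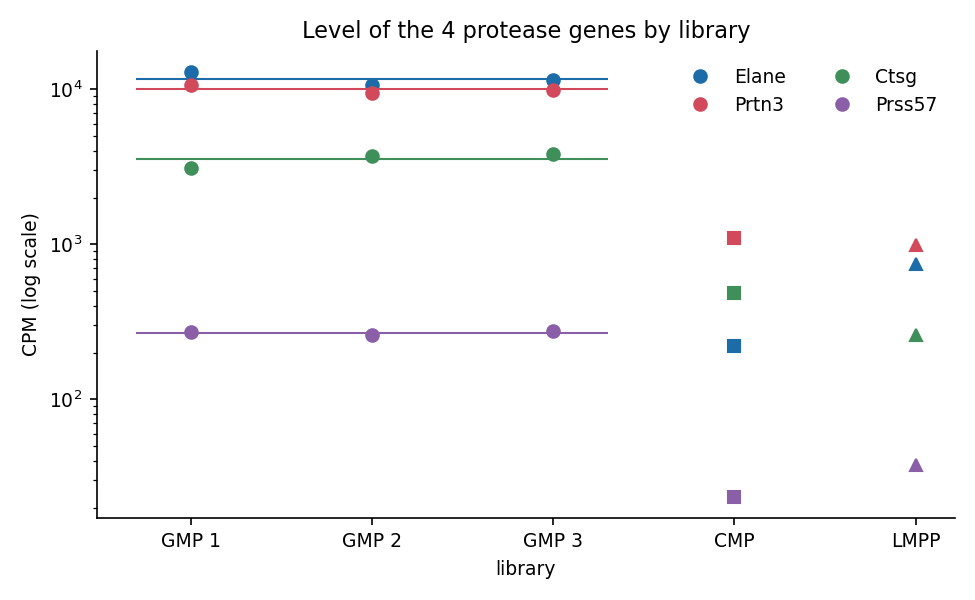
Level of each protease gene in each library, in CPM on a log axis; circles are the GMP libraries with a line at their mean, squares CMP and triangles LMPP. All GMP values lie above the CMP and LMPP values of the same gene, and Elane stands below Ctsg in CMP but above it in GMP and LMPP.

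The largest contrast between GMP and CMP was that of Elane. Its log2 difference was 6.05 ± 0.28 (SE; edgeR quasi-likelihood test, adjusted p = 9.69e-06), the 95th largest of 19766 genes tested. Prss57 followed at 3.82 ± 0.17 (adjusted p = 8.55e-06), Prtn3 at 3.49 ± 0.22 (adjusted p = 3.39e-05) and Ctsg at 3.19 ± 0.20 (adjusted p = 3.35e-05). All 4 members thus passed as higher in GMP, where 13.6% of genes tested did. Against LMPP, Elane differed by 4.60 ± 0.26 (edgeR, adjusted p = 8.97e-06), Ctsg by 4.38 ± 0.22 (adjusted p = 5.27e-06), Prtn3 by 3.95 ± 0.23 (adjusted p = 1.00e-05) and Prss57 by 3.45 ± 0.16 (adjusted p = 4.67e-06). There, too, all 4 passed as higher, beside 25.8% of genes. Over all genes, 2687 were higher and 3768 lower in GMP than in CMP (1457 and 5978 when scaled by total UMIs, and 4338 higher without GMP replicate 1), and 5109 were higher and 6250 lower than in LMPP (2172 and 10263). Both comparisons use the same GMP libraries, and their p-values hold no spread between CMP or between LMPP samples.

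CMP and LMPP differed in the mix of proteases. With 1 library each there is no test, and the intervals cover counting error only. Elane in CMP was 0.296 of its LMPP level (95% interval 0.291 to 0.301), and Prss57 was 0.622 of it (0.587 to 0.658). Ctsg went the other way, at 1.85 times its LMPP level in CMP (1.82 to 1.88). Prtn3 was close to even at a ratio of 1.11 (1.10 to 1.12). These ratios are scaled by library totals. With the TMM normalization factors of the GMP tests (1.09 for CMP, 1.35 for LMPP) each ratio would be higher, beyond its interval. None of the members reached 4-fold in either direction, as 0.383% of 6272 genes did upward and 0.893% downward. When the 148 CMP and 173 LMPP cells with markers of monocytes or granulocytes were left out, Elane was at 163 CPM in CMP and 460 CPM in LMPP, and Ctsg at 444 CPM in CMP and 207 CPM in LMPP. The share of cells with Elane, thinned to 2000 UMIs each, also differed, at 9.03% in CMP and 18.4% in LMPP. Without the gated cells it was 8.07% and 17.4%. Many of the Elane UMIs lay in few cells: those with 30 or more protease UMIs, 65 in CMP and 181 in LMPP, held 42.1% of them in CMP and 77.4% in LMPP. Outside these cells, Elane averaged 0.184 UMIs per cell in CMP and 0.230 in LMPP, a ratio of 0.7999, against 0.317 over all thinned cells. For Ctsg the ratio was 4.55 outside them and 2.44 over all, for Prtn3 1.54 and 1.13, and for Prss57 0.825 and 0.709. That range was set on the proteases themselves after their values had been seen, so these ratios are descriptions.

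Counted cell by cell, RNA of the proteases was all but universal in GMP and partial in the other populations. Each cell was thinned at random to 2000 UMIs so that depth was equal, which left 7255 to 8905 GMP cells, 6831 CMP cells and 7448 LMPP cells. At least 1 Prtn3 UMI was found in 99.9% ± 0.0317 of GMP cells (SD, n = 3), in 55.9% of CMP cells (exact Clopper-Pearson 95% interval 54.7 to 57.1) and in 59.0% of LMPP cells (57.9 to 60.1). Elane was found in 99.8% ± 0.0872 of GMP cells, in 9.03% of CMP cells (8.36 to 9.74) and in 18.4% of LMPP cells (17.5 to 19.3). Ctsg was found in 98.3% ± 0.680 of GMP cells, in 33.6% of CMP cells (32.4 to 34.7) and in 12.1% of LMPP cells (11.4 to 12.9). Prss57 was found in 37.3% ± 0.533 of GMP cells, in 3.98% of CMP cells (3.53 to 4.47) and in 5.37% of LMPP cells (4.87 to 5.91). The order by share was thus Prtn3, Elane, Ctsg, Prss57 in GMP and LMPP, and Prtn3, Ctsg, Elane, Prss57 in CMP. In GMP the Prtn3 and Elane shares are both at the ceiling of the measure.

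Without thinning, Prtn3 was seen in 87.4% of CMP cells and 93.8% of LMPP cells, Elane in 29.3% and 56.1%, Ctsg in 62.6% and 35.3%, and Prss57 in 19.4% and 22.9%. The order of the members within each of these libraries was the same at both depths. Single molecules make up much of the low-level signal: among cells with Prtn3 the median was 18 to 20 Prtn3 UMIs per 2000 in GMP, 2 in CMP and 1 in LMPP, and among cells with Elane it was 19 to 23 Elane UMIs in GMP and 1 in CMP and LMPP.

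**Figure D2:**
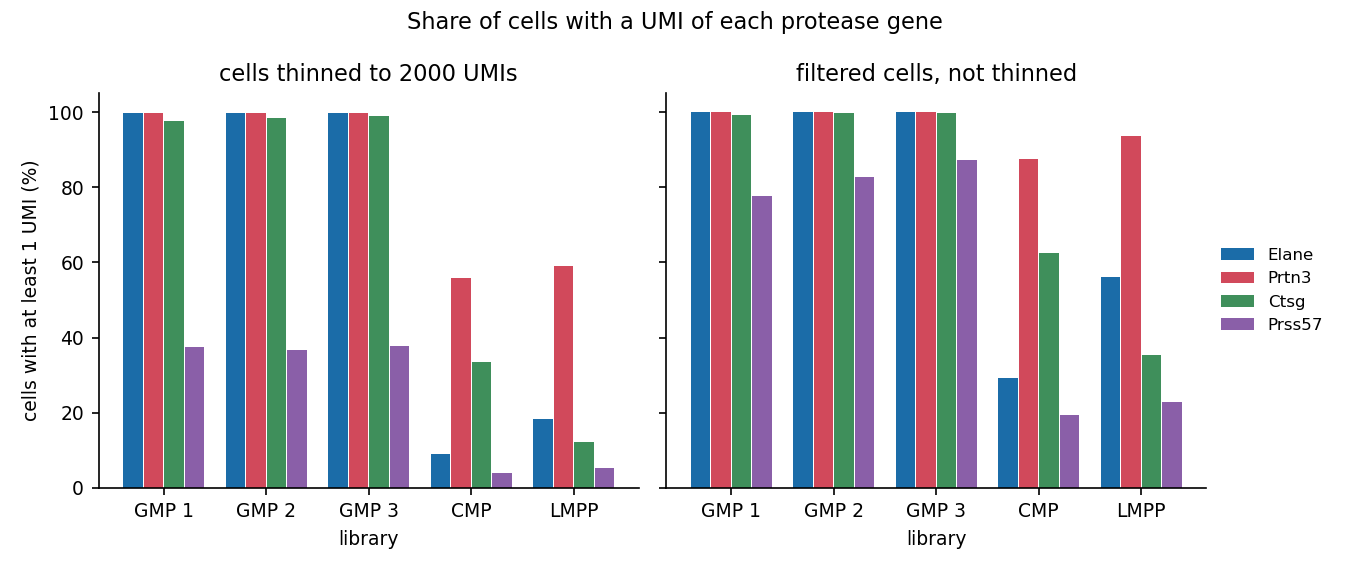
Share of cells with at least 1 UMI of each protease gene, by library, after thinning to 2000 UMIs (left) and without thinning (right). GMP bars are near 100% for Elane, Prtn3 and Ctsg, and Prtn3 is the tallest bar in CMP and in LMPP at both depths.

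Free RNA in droplets can give a UMI to a cell that does not express a gene, so the shares were set beside those in cells with markers of other lineages. In GMP the 3, 15 and 4 cells with at least 3 erythroid markers (3, 10 and 1 of them exactly at that minimum) all had Elane UMIs, at 3.67, 4 and 3.5 per 2000 UMIs, against library means of 25.2, 20.6 and 22.5. Whether those UMIs were free RNA, the cells' own RNA or a second cell in the droplet was not tested. A share of cells with an Elane UMI thus did not set the erythroid gate apart in GMP, and amounts per cell are used there instead. In CMP, the 438 cells of the erythroid gate (median 10867.5 UMIs before thinning, 10066 in the library) held Prtn3 in 26.0% (22.0 to 30.4), Ctsg in 9.82% (7.20 to 12.996), Elane in 2.97% (1.59 to 5.02) and Prss57 in 1.83% (0.792 to 3.57). The CMP shares of Prtn3, Ctsg and Elane lie above those intervals, and the interval of Prss57 in CMP meets that of the gate. In LMPP, the 56 cells of the erythroid gate (median 29279.5 UMIs, 9249 in the library) held Prtn3 in 23.2% (12.98 to 36.4), Elane in 12.5% (5.18 to 24.1) and Ctsg in 1.79% (0.0452 to 9.55), and none held Prss57 (0 to 6.38; 3 counts of these cells would be 5.36%), though 8.93% of them held it before thinning. In the 36 LMPP cells of the B lymphoid gate Elane was in 25% (12.1 to 42.2) and Prtn3 in 19.4% (8.19 to 36.0).

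In the stem and multipotent gate of LMPP, Prtn3 was the protease whose interval lay clear of that of the erythroid gate. Before thinning, the LMPP erythroid gate cells were far deeper than the library median. Whether that depth lowered their shares after thinning was not tested. Of 1898 LMPP cells in the stem and multipotent gate (at least 3 of Hlf, Mecom, Meis1, Procr, Mllt3, Mycn and Hoxa9; 1280 of them exactly at that minimum), 62.4% held Prtn3 (60.2 to 64.6). The comparison depends in size on the cut, since 446 LMPP cells lay 1 marker below it in the erythroid gate: at 2 or more markers, 60.5% of 3583 stem gate cells (58.8 to 62.1) and 45.0% of 209 erythroid gate cells (38.1 to 51.99) held Prtn3. Elane was in 17.5% of the 1898 cells (15.9 to 19.3), inside the intervals of the LMPP erythroid and B lymphoid gates, which hold few cells. Whether these Elane UMIs are background was not tested. Ctsg was in 6.27% (5.22 to 7.46) and Prss57 in 3.58% (2.79 to 4.52), also within the erythroid gate's intervals. The amounts in these cells were small, 1.09 Prtn3 UMIs and 0.191 Elane UMIs per 2000, and the ratio of Elane to Prtn3 UMIs was 0.175, against 0.615 in the erythroid gate and 1.57 in the B lymphoid gate of the same library. The erythroid and B lymphoid ratios rest on few cells, and no interval was set on them. In CMP the 184 cells of the stem gate gave a like picture, with Prtn3 in 55.4% (47.9 to 62.7), Ctsg in 13.04% (8.54 to 18.8) and Elane in 7.07% (3.82 to 11.8), of which Prtn3 alone had an interval clear of that of the CMP erythroid gate.

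Cells with a single kind of protease RNA were mostly Prtn3 cells. In CMP, 2403 thinned cells held exactly 1 of the 4 members, and in 75.5% of them it was Prtn3, in 17.9% Ctsg, in 3.70% Elane and in 2.87% Prss57. In LMPP, 3712 cells held exactly 1 member, which was Prtn3 in 80.3%, Elane in 10.99%, Ctsg in 5.74% and Prss57 in 2.94%. In the GMP libraries only 3, 3 and 0 cells held exactly 1. These shares follow each gene's level, so they give an order of detection and not a time course.

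The second member differed between the populations. Of CMP cells with exactly 2 members, 85.4% held Prtn3 with Ctsg and 7.42% Elane with Prtn3. Of LMPP cells with exactly 2, 52.0% held Elane with Prtn3 and 29.8% Prtn3 with Ctsg. With exactly 3, the set was Elane, Prtn3 and Ctsg in 82.5% of CMP cells and in 83.8% of LMPP cells. Elane without Prtn3 was found in 117 CMP cells, against 3320 with Prtn3 and no Elane, and in LMPP these numbers were 465 and 3489. Ctsg without Prtn3 was found in 477 CMP cells, against 2005 with Prtn3 and no Ctsg, and in LMPP in 256 against 3748.

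The proteases were found in the same cells more often than their separate shares give. In CMP, 406 cells held 3 members and 43 held all 4, where multiplying the separate shares gives 170 and 4.61 cells. In LMPP, 253 cells held 3 and 73 held all 4, where the product of the shares gives 158 and 5.27. Cells with no member were also more numerous than that product in CMP, at 2375 against 1748, and in LMPP, at 2257 against 2071. Without the cells of the monocyte and granulocyte gates, 343 CMP cells held 3 and 36 held 4 (146 and 3.77 by the product), and 199 LMPP cells held 3 and 39 held 4 (133 and 4.04). By pair, the log2 odds ratio of joint detection was highest for Prtn3 with Ctsg in CMP at 2.26, then Elane with Ctsg at 2.13 and Elane with Prtn3 at 1.89. In LMPP it was 1.51 for Elane with Ctsg, 1.42 for Ctsg with Prss57, 0.97 for Elane with Prss57, 0.91 for Prtn3 with Ctsg, 0.53 for Elane with Prtn3 and 0.34 for Prtn3 with Prss57, and without those gated cells 1.11, 0.98, 0.51, 0.70, 0.39 and 0.16. Cells that differ in background or in stage share these odds, and no p is given for them.

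Summed over the 4 genes, protease RNA was spread in CMP as a gradient and in LMPP as a small, very high group beside a low majority. The ranges of summed UMIs per 2000 used here were set after the values had been seen. In GMP, 75.9%, 71.9% and 78.4% of cells had 30 or more. In CMP, 65 cells (0.952%) did and held 13.1% of the library's protease UMIs, while 459 cells (6.72%) with 10 to 29 held 34.9% and 1473 cells (21.6%) with 3 to 9 held 35.5%. In LMPP, 181 cells (2.43%) had 30 or more and held 50.6% of the protease UMIs, only 70 cells (0.940%) had 10 to 29, and the 3735 cells (50.1%) with 1 to 2 held 23.2%.

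The LMPP cells with 30 or more were near GMP cells in their mix of proteases. In the GMP cells of that range Elane made up 47.3% ± 2.01 of protease UMIs, Prtn3 38.5% ± 0.439, Ctsg 13.1% ± 2.27 and Prss57 1.04% ± 0.0330 (SD, n = 3). In the LMPP cells of that range Elane made up 50.8%, Prtn3 38.0%, Ctsg 10.4% and Prss57 0.845%. Flt3 had a UMI in 3.31% of these LMPP cells and Ly6a in 1.10%, against 22.3% and 4.26% of LMPP cells with 1 to 2 protease UMIs. The stem cell gene Hlf averaged 0.0718 UMIs in them, against 1.24, and Ms4a3, a gene of granulocyte-monocyte progenitors, averaged 3.33, against 0.0257. They differed from GMP cells of that range in Mpo, at 7.81 UMIs against 15.1, 13.3 and 16.9 in the GMP libraries. Of the GMP cells of that range, 620 of 6199, 633 of 6404 and 643 of 5690 were in the early granulocyte gate. Of the 181 LMPP cells, 67 were in that gate, 5 in the monocyte gate and none in the stem gate, and 2 had a barcode that also occurs in a GMP library. Because the range was cut on the proteases themselves, these values describe the cells, and whether they passed the sort as LMPP or came from elsewhere was not tested.

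The mix differed between ranges of the summed amount, and Elane's part was largest in cells with 30 or more but did not rise step by step. In CMP, Elane made up 5.01% of protease UMIs in cells with 1 to 2, 2.10% in cells with 3 to 9, 13.2% in cells with 10 to 29 and 34.2% in cells with 30 or more, while Prtn3 made up 68.9%, 63.8%, 62.9% and 50.4% and Ctsg 22.3%, 32.7%, 23.2% and 14.5%. In LMPP, Elane made up 15.3%, 10.1%, 32.3% and 50.8% over the same ranges, and Prtn3 72.9%, 76.6%, 49.0% and 38.0%. In the few GMP cells with 3 to 9 (2.52% ± 0.919 of cells), Elane at 40.6% ± 2.39 and Prtn3 at 38.8% ± 1.55 lay within each other's spread, with Elane ahead in GMP libraries 1 and 3 and Prtn3 in library 2. Prtn3 led in GMP cells with 10 to 29, at 45.8% ± 1.51 against 33.2% ± 0.713 for Elane, and Elane led in cells with 30 or more (47.3% ± 2.01 against 38.5% ± 0.439 for Prtn3). The change of lead between these upper ranges was present in each of the 3 GMP libraries. The sum that sets the ranges holds the members themselves, so their parts can shift between ranges by the cut alone. These values are therefore descriptions. Over whole libraries, Elane made up 46.1% ± 1.99 of thinned protease UMIs in GMP, 10.7% in CMP and 33.2% in LMPP, and Prtn3 made up 39.1% ± 0.491, 62.6% and 54.6%.

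**Figure D3:**
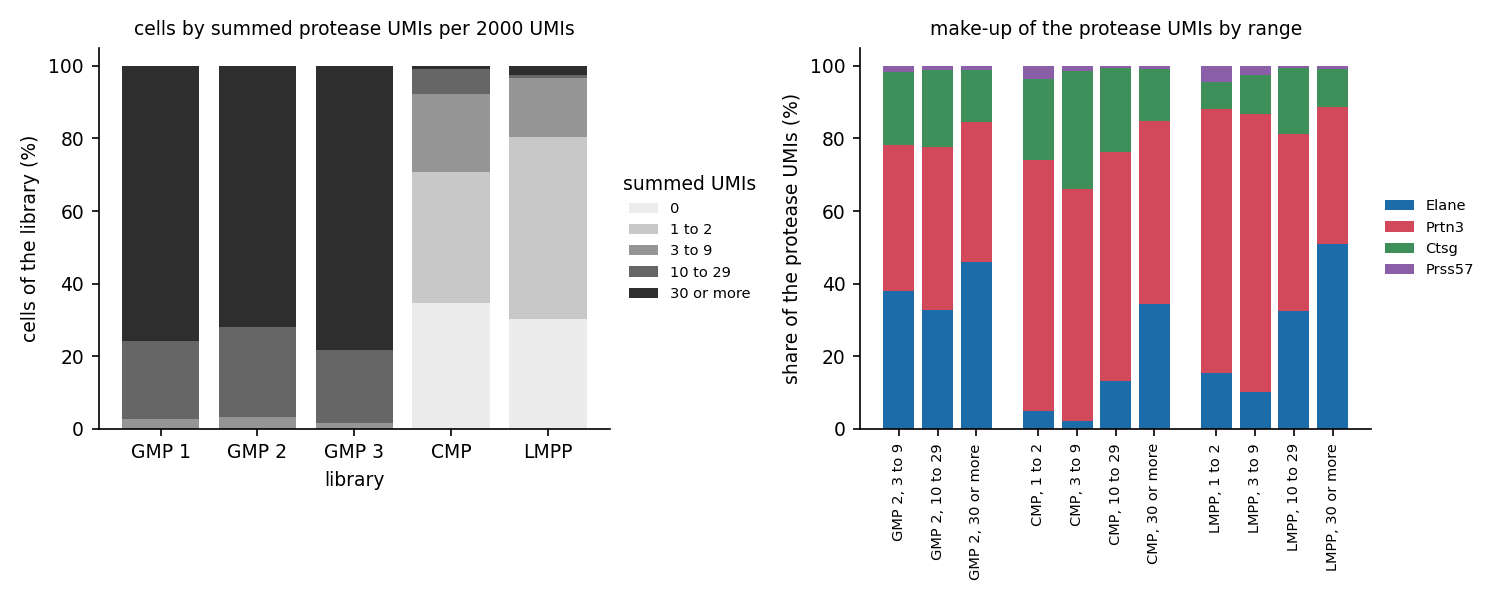
Left, share of cells of each library by the summed UMIs of the 4 proteases per 2000 UMIs. Right, make-up of the protease UMIs within those ranges in GMP library 2, CMP and LMPP (ranges with under 20 cells left out). Elane's part is largest in the range of 30 or more in all 3, at 45.9% in GMP library 2, 34.2% in CMP and 50.8% in LMPP.

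Across ranges of Mpo, which encodes the peroxidase of the same granule and is no member, the shares of cells with each protease kept 1 order in CMP, that of the genes' levels. Prtn3 was in 35.6% of CMP cells without a Mpo UMI, then in 49.9% of cells with 1 to 2, 73.2% with 3 to 9 and 95.8% with 10 or more. Ctsg followed at 12.7%, 22.0%, 53.8% and 89.4%. Elane was at 3.84%, 5.11%, 10.2% and 44.8%, and Prss57 at 2.51%, 3.602%, 4.42% and 10.2%. In no range did the intervals of neighbouring members in that order overlap, except those of Elane and Prss57 in cells with 0 to 2 Mpo UMIs. The ranges held 2030, 2249, 2081 and 471 CMP cells. In cells without a Mpo UMI, the shares of Ctsg, Elane and Prss57 lay inside the intervals of the CMP erythroid gate. Whether they are background was not tested. The Prtn3 share lay above its interval in that gate, but inside the one at 2 or more erythroid markers (32.9%, 29.98 to 35.9).

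In LMPP, Prtn3 and Elane were close to level between cells with 0 and with 1 to 2 Mpo UMIs, Ctsg was already higher in the second of these ranges, and all 4 were more frequent above them. Prtn3 was in 57.8%, 56.5%, 78.9% and 97.2% of cells over the same ranges, Elane in 15.998%, 16.5%, 45.8% and 83.3%, Ctsg in 7.15%, 11.8%, 61.0% and 93.1%, and Prss57 in 4.17%, 5.41%, 16.7% and 25%. Elane lay above Ctsg in cells with 0 to 2 Mpo UMIs, and Ctsg above Elane in cells with 3 to 9. The 72 LMPP cells with 10 or more were the fewest. In GMP, Prss57 was at 7.94% ± 7.27, 15.9% ± 4.86, 32.2% ± 1.23 and 39.6% ± 0.683 over the 4 ranges (SD, n = 3).

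**Figure D4:**
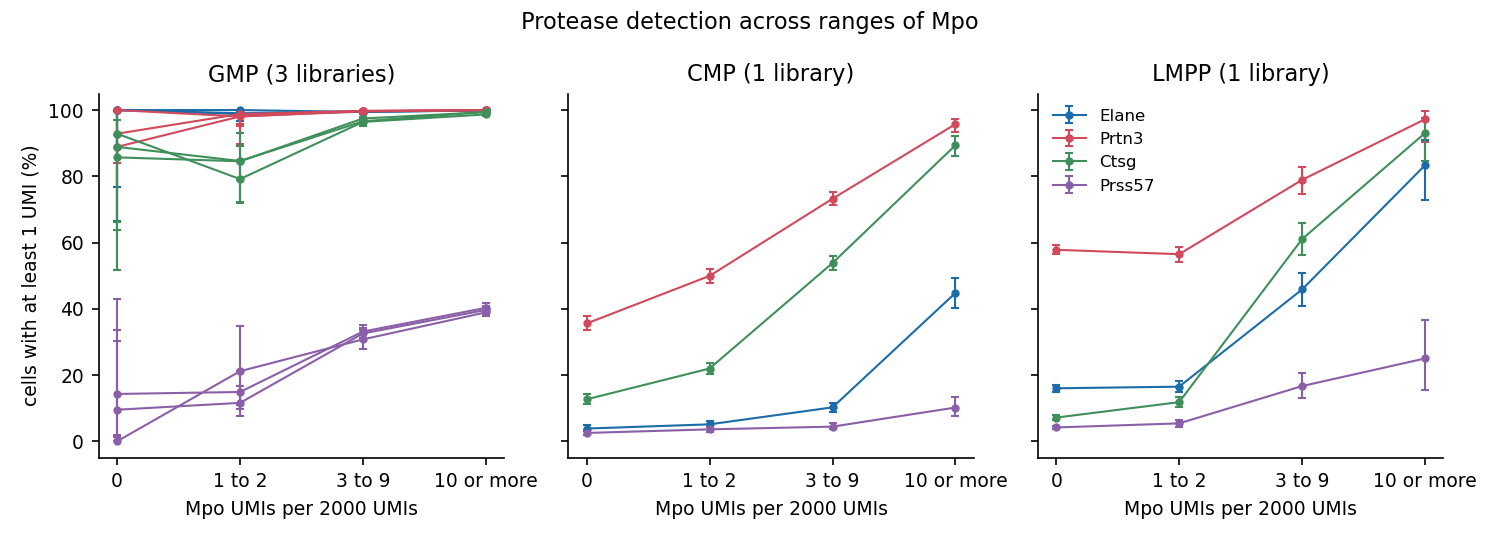
Share of thinned cells with at least 1 UMI of each protease over ranges of Mpo UMIs, in GMP (1 line per library), CMP and LMPP; bars are exact 95% intervals. The CMP lines keep the order Prtn3, Ctsg, Elane, Prss57 in all ranges, and in LMPP the Ctsg line crosses the Elane line.

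Within GMP the amount per cell differed several-fold between marker-defined cells, and the early granulocyte gate was the richest. Gates are ranges cut at 3 markers, which hold no member, and not cell types: of the 633, 647 and 655 cells in the early granulocyte gate, 409, 431 and 430 had exactly 3 markers, and 1383, 1416 and 1363 cells had 1 marker fewer. Summed protease UMIs per 2000 were 89.8, 79.0 and 78.9 in that gate, 43.1, 41.1 and 40.4 in the monocyte gate, and 52.2, 46.3 and 49.5 over all thinned cells of the same libraries. The early granulocyte gate lay above the monocyte gate in each library. The basophil and mast cell gate averaged 13.2 ± 0.244 and the eosinophil gate 18.8 ± 0.954. The erythroid gate, with 22 cells over the GMP libraries, averaged 9.5 ± 0.5. Whether part of these amounts is background was not tested.

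As a ratio of mean UMIs, Prss57 and Elane differed most between the early granulocyte and monocyte gates; in UMIs per cell, Elane and Prtn3 did, and Prss57 least. Prss57 averaged 0.956 ± 0.0714 UMIs per 2000 in the early granulocyte gate and 0.304 ± 0.0168 in the monocyte gate (SD, n = 3), Ctsg 10.6 ± 1.23 and 5.19 ± 0.520, and Prtn3 29.8 ± 2.63 and 18.1 ± 0.864. Elane UMIs per 2000 were 46.8, 38.3 and 38.6 in the early granulocyte gate and 19.2, 17.4 and 17.3 in the monocyte gate. Elane made up 49.8% ± 1.96 of protease UMIs in the early granulocyte gate and Prtn3 36.1% ± 0.464, whereas in the monocyte gate they were level at 43.2% ± 1.18 and 43.5% ± 0.691. Prss57 was found in 59.8% ± 2.96 of cells of the early granulocyte gate and in 25.4% ± 1.42 of the monocyte gate, with 10.6% ± 12.9 in the erythroid gate. The early granulocyte gate includes Cebpe and Gfi1, which encode factors of granulocyte differentiation, and its median depth was close to that of the monocyte gate in each library.

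Ctsg was the member that basophil and mast cell gated cells held out of proportion. It made up 23.4%, 29.5% and 27.7% of protease UMIs in that gate of the GMP libraries, against 11.2%, 15.3% and 14.9% over the whole libraries, and 18.5%, 22.0% and 10.5% in the erythroid gate, which holds few cells. In the 82 CMP cells of the basophil and mast cell gate, Ctsg was in 32.9% (22.9 to 44.2) and Elane in 1 cell (1.22%, 0.0309 to 6.61), and Ctsg gave 48 UMIs against 1 of Elane, a ratio of 48, where the erythroid gate of the same library had a ratio of 3.38. A high ratio was not particular to this gate, since in CMP cells with 3 to 9 protease UMIs Ctsg made up 32.7% and Elane 2.10%. In LMPP the gate held 12 cells, with 20 Ctsg UMIs and 2 Elane UMIs. No UMI-level test over cells was made, since cells of a library are not replicates.

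**Figure D5:**
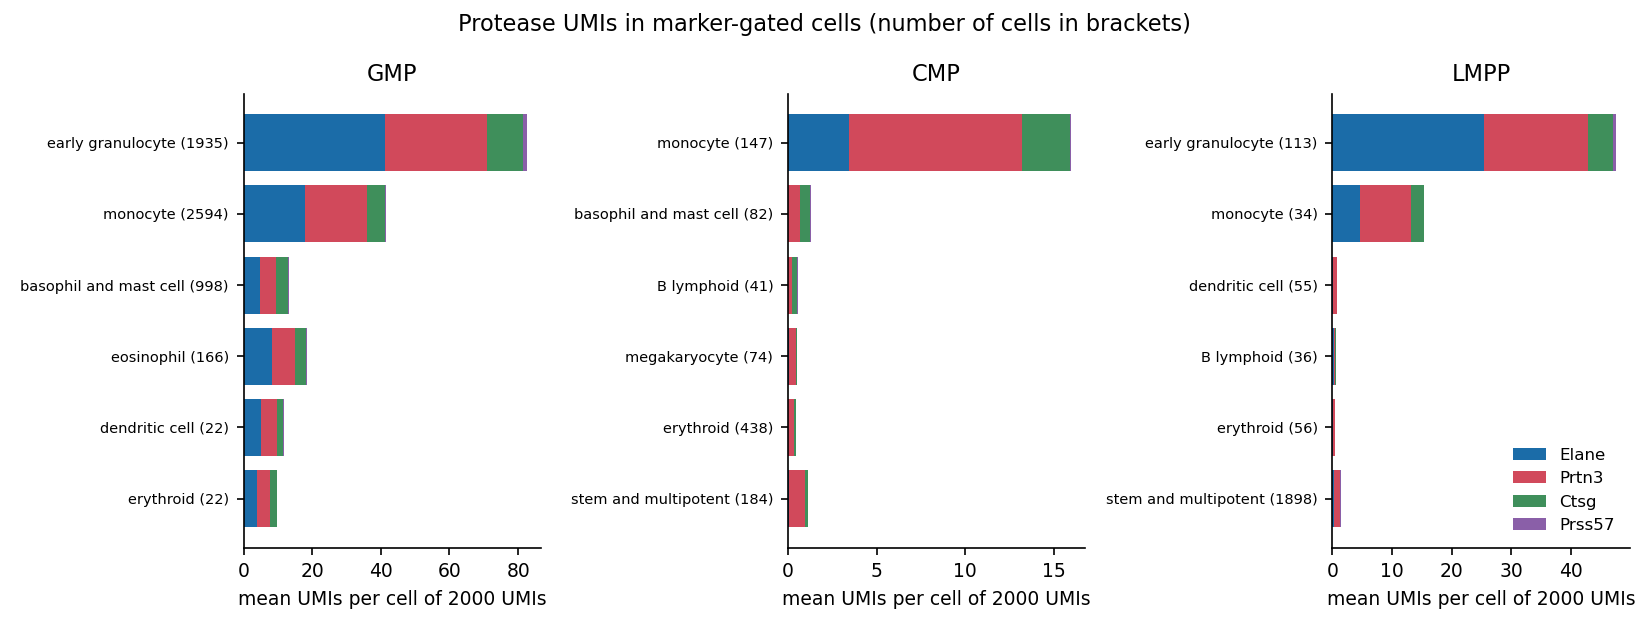
Mean protease UMIs per cell thinned to 2000 UMIs, by marker gate, in GMP (cells of the 3 libraries pooled), CMP and LMPP; each panel has its own axis and gates with under 20 cells are left out. The early granulocyte gate is the longest bar in GMP and LMPP, and the monocyte gate in CMP.

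In CMP and LMPP most of the protease RNA lay in cells of no gate, which held 85.04% of the protease UMIs in CMP (85.6% of cells) and 60.4% in LMPP (69.7% of cells), while the granulocyte and monocyte gates held more than their share of cells. The 147 CMP cells of the monocyte gate (2.15% of cells) held 11.7% of the protease UMIs, with Prtn3 at 9.74 UMIs per 2000, Elane at 3.47 and Ctsg at 2.68. The 113 LMPP cells of the early granulocyte gate (1.52%) held 24.1%, with Elane at 25.5, Prtn3 at 17.3 and Ctsg at 4.18. In CMP the early granulocyte gate held 1 cell. Elane was the most concentrated of the abundant members: 1% of cells held 47.8% of its thinned UMIs in CMP and 46.2% in LMPP, against 3.08% ± 0.134 in GMP.

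Within GMP libraries the members varied together over cells. Pearson's r of log(1 + UMIs) over thinned cells, averaged over the 3 libraries, was 0.720 ± 0.0258 for Elane with Prtn3, the gene next to it (SD, n = 3 libraries). It was 0.509 ± 0.0395 for Elane with Ctsg, 0.485 ± 0.0440 for Prtn3 with Ctsg, and 0.299 ± 0.0107 for Elane with Prss57. Cells of a library share its free RNA, and Prss57 has about 0.519 UMIs per 2000, which limits its r. In CMP the order differed, with Prtn3 and Ctsg at 0.574 and Elane and Prtn3 at 0.477. It differed in LMPP too, where Elane and Ctsg were at 0.640, Elane and Prtn3 at 0.555 and Prtn3 and Ctsg at 0.510.

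Among genes other than the members, which were left out as candidates, the gene most like each of them over GMP cells was Ms4a3, which encodes a membrane protein of granulocyte-monocyte progenitors. Its r was 0.530 ± 0.00986 with Elane, 0.450 ± 0.0154 with Prtn3, 0.413 ± 0.0272 with Ctsg and 0.255 ± 0.0135 with Prss57, among 3794 candidate genes with a median r between -0.012 and -0.0034. After Ms4a3 the genes most like Elane were Dstn, Nkg7, Srgn and Tmsb4x (r of 0.357 to 0.374), those most like Prtn3 were Mpo, Gpx1, Rps12 and Dstn (0.312 to 0.345), and those most like Ctsg were Mpo, Srgn, Nkg7 and Pglyrp1 (0.265 to 0.319). Srgn encodes serglycin, and Pglyrp1 encodes a peptidoglycan recognition protein of granules. For Prss57 the next were Srgn, Nkg7, Pglyrp1 and Dstn, with r of 0.156 to 0.210.

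The genes around the members varied in level and contrast. Between and beside the chromosome 10 members, 10 other protein-coding genes were examined and 8 tested. Fstl3, which overlaps Prss57 across the outer edge of the span, was not among them. Of those, 4 were higher and 1 lower in GMP than in CMP, and 5 were higher and none lower than in LMPP. Over all genes tested, 13.6% were higher and 19.1% lower in GMP than in CMP, and 25.8% were higher and 31.6% lower than in LMPP. Palm, which lies between Prss57 and Prtn3, had 79.5, 70.8 and 71.6 CPM in GMP, 35.2 in CMP and 17.5 in LMPP, a log2 difference of 1.38 ± 0.16 from CMP (edgeR, adjusted p = 0.000469). Plppr3, which overlaps Prtn3, had 47.5, 40.0 and 43.1 CPM in GMP, 36.6 in CMP and 30.8 in LMPP (0.56 ± 0.16 from CMP; edgeR, adjusted p = 0.0293). Cfd, the complement factor D gene beside Elane and a granule serine protease in its own right, was at 0.392, 0.254 and 0.246 CPM in GMP and under 0.05 CPM in CMP and LMPP. Near Ctsg, Mcpt8, a basophil protease gene, had 120, 142 and 118 CPM in GMP, 20.5 in CMP and 17.3 in LMPP, while Gzme, Gzmd and Gzmg had 0 to 0.0249 CPM.

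Of the genes that make, store, accompany, inhibit or control these proteases, the share that passed varied by role. Among 9 tested genes of granule cargo other than the members, 3 were higher in GMP than in CMP and none lower (median log2 difference 0.43, against -0.04 over all genes), and 6 were higher and none lower than in LMPP (median 1.22, against -0.09). The shares over all genes were 13.6% higher and 19.1% lower against CMP, and 25.8% and 31.6% against LMPP. Scaled by total UMIs, 2 cargo genes were higher and 1 lower than in CMP (median 0.12), and 4 higher and 1 lower than in LMPP (median 0.60). Mpo had 7520, 6323 and 8119 CPM in GMP, 1873 in CMP and 521 in LMPP, differing by 2.27 ± 0.22 from CMP (edgeR, adjusted p = 0.000214). Ctsz, a lysosomal cathepsin gene, differed by 1.67 ± 0.14 (adjusted p = 0.000121) and Gusb, which encodes beta-glucuronidase, by 0.52 ± 0.13 (adjusted p = 0.0202). Gusb lost its call when scaled by total UMIs (adjusted p = 0.268) and without GMP replicate 2 (0.0572) or GMP replicate 3 (0.052).

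Of 12 genes of processing, storage and trafficking, 7 were higher in GMP than in CMP and none lower (median 0.51), and 8 were higher and 1 lower than in LMPP (median 0.89). Without GMP replicate 2, 4 were higher than in CMP. Srgn had 1819, 2463 and 2666 CPM in GMP, 967 in CMP and 1112 in LMPP, differing by 1.56 ± 0.22 from CMP (edgeR, adjusted p = 0.00143). Cd63, a granule membrane gene, differed from CMP by 1.10 ± 0.17 and Tcirg1, a subunit gene of the vacuolar proton pump, by 1.24 ± 0.20 (edgeR, adjusted p = 0.00228 and 0.00224). Lyst, mutated in Chediak-Higashi syndrome with its giant granules, differed by 1.25 ± 0.14 from CMP (adjusted p = 0.000497) and by -0.07 ± 0.13 from LMPP (adjusted p = 0.645; -0.69 and 0.00307 when scaled by total UMIs). Under that scaling 4 genes of the list were higher and 1 lower against CMP (median 0.20), and 5 and 3 against LMPP (median 0.27).

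Protease inhibitor genes were divided. Of 10 tested, 4 were higher and 4 lower in GMP than in CMP (median 0.19, or -0.12 when scaled by total UMIs), and 3 were higher and 4 lower than in LMPP (median -0.36, or -0.98 under that scaling). Slpi, which encodes secretory leukocyte protease inhibitor, a direct inhibitor of elastase and cathepsin G, had 195, 176 and 198 CPM in GMP, 68.6 in CMP and 17.5 in LMPP, differing from CMP by 1.77 ± 0.15 (edgeR, adjusted p = 0.000124). Serpina3g, a serpin gene, had 10.3, 16.8 and 9.48 CPM in GMP, 138 in CMP and 121 in LMPP, so that it fell by 3.19 on the log2 scale against CMP (edgeR, adjusted p = 9.69e-05). Wfdc17 had 1.999, 1.86 and 1.57 CPM in GMP, 53.3 in CMP and 157 in LMPP, and Wfdc21 had 25.1, 22.2 and 24.7 CPM in GMP, 0.522 in CMP and 29.1 in LMPP. Wfdc21 did not pass against LMPP (edgeR, 0.34 ± 0.15, adjusted p = 0.0830), but it did without the monocyte and granulocyte gates (2.42), and its sign turned when scaled by total UMIs (-0.28). Wfdc17 and Wfdc21 belong to the whey acidic protein domain family.

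Among 12 regulator genes, 7 were higher and 1 lower in GMP than in CMP (median 0.58), and 6 were higher and 3 lower than in LMPP (median 0.50). Cebpe, a granulocyte C/EBP factor gene, had 136, 145 and 165 CPM in GMP, 6.08 in CMP and 11.5 in LMPP, differing from CMP by 4.91 ± 0.19 (edgeR, adjusted p = 5.98e-06). Cebpd differed by 2.53 ± 0.22 (adjusted p = 0.000134), Irf8, a monocyte and dendritic cell factor gene, by 0.85 ± 0.17 (adjusted p = 0.00688) and Myb by 0.62 ± 0.20 (adjusted p = 0.0457; 0.109 without GMP replicate 2 and 0.273 when scaled by total UMIs). Under that scaling 4 regulators were higher and 3 lower than in CMP (median 0.27), and 5 higher and 4 lower than in LMPP, where the median turned to -0.12. Of 9 tested granule serine protease genes of other lineages, 7 were higher in GMP than in CMP and none lower (median 2.93), and 7 and none against LMPP (median 3.49). Scaled by total UMIs, 6 were higher and 1 lower than in CMP (median 2.62), and 7 and none against LMPP (median 2.87). Mcpt2, Tpsb2 and Cfd, which passed, averaged only 0.31, 0.59 and 0.30 CPM in GMP. The higher genes of this list include the mast cell chymase gene Cma1 at 18.9, 20.5 and 22.4 CPM in GMP, 2.55 in CMP and 1.58 in LMPP. They also include the basophil gene Prss34 at 46.1, 56.7 and 48.9 CPM in GMP, 0.124 in CMP and 9.01 in LMPP.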

How the data were processed

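The authors deposited UMI counts for each gene in each barcode. Per the submitters' processing notes, Cell Ranger 3.1.0, Seurat 3.1.1 and the mm10 build were used, while cellranger 6.1.1 wrote the matrices, per the file headers. How barcodes were kept is not given in the sources used here. Barcodes with under 500 genes, under 1000 UMIs or over 10% mitochondrial UMIs were removed (77 to 387 per library), as were doublets called from simulated doublets at 0.8% per 1000 barcodes (432 to 783). The kept libraries summed to 80397666 to 118272491 UMIs.

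The kept cells of a library were added up, and genes were tested by edgeR 4.0.16 (quasi-likelihood test; limma 3.58.1, R 4.3.3), with TMM factors of 0.853 to 0.901 for GMP, 1.09 for CMP and 1.35 for LMPP, filterByExpr, and Benjamini-Hochberg adjustment over all 19766 genes at 0.05. CPM values use the library total without TMM factors. The fit pools all 5 libraries, and CMP and LMPP are assumed to vary like GMP. On simulated data with 100 genes changed 2-fold and 100 changed 4-fold, 85% and 100% were recovered for GMP against CMP (18809 genes), and 79% and 100% for GMP against LMPP (18788 genes). Cells were thinned to 2000 UMIs, leaving out 49 to 267 shallower cells per library. Shares have exact Clopper-Pearson 95% intervals and CMP-to-LMPP ratios exact Poisson-based intervals, both for counting error only. A gate needs a UMI of at least 3 markers in the thinned cell and more than any other gate. Odds ratios have 0.5 added to each cell of the 2 by 2 count.

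The members and lists were chosen with earlier results of these data known. All 4 members are named. Of each list the named genes are at most 4, those with the largest log2 difference past 0.05 in GMP against CMP where the higher group has at least 20 CPM. The 5 genes most like a member were taken by mean r over the GMP libraries among genes in at least 5% of cells. Neighbours are genes between members within 200 kb and the 3 nearest protein-coding genes wholly outside on each side. A gene across the outer edge of a span, as Fstl3 is, was left out. Sequences are from RefSeq (GRCm38.p6). Alternatives were DESeq2 1.42.0 size factors and Wald test, doublet calls kept, all deposited barcodes, no low-count filter, no maturing neutrophil gate, only the groups compared, each GMP replicate left out, thinning to 1000 or 4000 UMIs and at least 2 UMIs. Scaling by total UMIs, at least 10 UMIs, leaving out the monocyte and granulocyte gates of CMP and LMPP, and values outside cells with 30 or more protease UMIs were added after seeing the data. Python 3.11.15, numpy 2.4.6, scipy 1.17.1 and pandas 2.3.3 were used.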

Additional observations from a re-analysis of the deposited data

How the results depend on the processing

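All 8 log2 differences of the members stayed positive and past 0.05 in the 13 settings run. Against CMP, Elane ranged from 5.74 to 6.48, Prss57 from 3.52 to 3.89, Prtn3 from 3.18 to 3.70 and Ctsg from 2.88 to 3.31. Against LMPP, Elane ranged from 3.98 to 5.30, Ctsg from 3.77 to 4.73, Prtn3 from 3.33 to 4.29 and Prss57 from 2.83 to 3.66, the lowest under scaling by total UMIs. That scaling moved the median over all genes to -0.34 against CMP and to -0.71 against LMPP, and gave 1457 genes higher and 5978 lower against CMP, and 2172 higher and 10263 lower against LMPP. Genes higher in GMP than in CMP numbered 2687, and 2062 to 4338 with a GMP replicate left out (4338 without replicate 1). The direction of CMP against LMPP held for each member. Without the monocyte and granulocyte gates its log2 ratios were -1.495 for Elane, 0.27 for Prtn3, 1.10 for Ctsg and -0.54 for Prss57. Prtn3 was at 0.165 with all barcodes or doublet calls kept. Cells with any member were 99.98%, 49.0% and 48.5% (GMP, CMP, LMPP) at 1000 UMIs, 81.2% and 89.0% (CMP, LMPP) at 4000, 99.99%, 35.7% and 30.6% at 2 or more UMIs, and 87.5%, 4.25% and 2.95% at 10 or more. Prtn3 among cells with exactly 1 member was 71.1% in CMP and 77.8% in LMPP at 1000, 77.5% and 84.4% at 4000, 82.5% and 92.8% at 2 or more, and 94.4% and 63.9% at 10 or more. The median log2 odds ratio was 1.55 in LMPP at 1000 UMIs, and 3.98 in CMP and 4.57 in LMPP at 2 or more. The cause of these moves was not tested beyond the thresholds themselves. No paired analysis was possible because CMP and LMPP have 1 library each, with no replicate number in the labels.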
